A study of Mus musculus with 8 samples.

Results

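The genes described here are 8 known markers of the mesothelium, Lrrn4, Upk3b, Upk1b, Msln, Gpm6a, Bnc1, Tbx18 and Efemp1, measured in mouse LB-22 cells after Wt1 knockdown. They were covered by 14 probe sets of the 45101 on the Affymetrix Mouse 430_2 array, and by 8 of the 18193 genes that the platform annotation names without ambiguity. The genes were chosen by their place in the mesothelium literature and with the difference between Wt1 siRNA and control siRNA on these same arrays already known. That difference is therefore given for them as a description, with its error and no p-value. Where limma's calls are counted for them, the counts describe the arrays and are not independent evidence.

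LB-22 is an immortalized cell line from embryonic mouse kidney. All cells were expanded with interferon gamma and basic FGF among the supplements and were moved to a warmer incubator without interferon when transfected. The 2 groups differ in the siRNA, which was directed against Wt1 in 4 samples and was a scrambled control sequence in the other 4. Each was given as 25 pmol for 6 h with a lipid reagent, RNA was taken at 48 h, and each sample was hybridized to its own array. Nothing in the labels says that the 4 samples of a group were separate cultures, so errors and p-values cover only how far these 8 arrays scatter, possibly for technical reasons alone. In such a bulk measurement fewer cells of a type and less RNA per cell cannot be told apart.

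The mesothelium is the flat epithelium that covers the heart, lungs, abdominal organs and body wall, and it arises from the mesoderm. Its cells carry keratins together with mesenchymal proteins such as vimentin, and in the embryo they can leave the surface and give rise to fibroblasts and smooth muscle. Wt1, a zinc finger transcription factor, is present in the mesothelium and epicardium as well as in the developing kidney and gonads. The comparison asks how transcripts differ when Wt1 is lowered.

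The values are MAS5 signals, a linear brightness per probe set, and a log2 difference is the mean log2 signal of the 4 Wt1 siRNA arrays minus that of the 4 control arrays. The trimmed mean signal was the same on all 8 arrays, and array medians ran from 279.1 to 346.1. The number of arrays limits the precision. The 27 control probe sets for Bacillus subtilis transcripts, which mouse cells lack, reached at most 227.2 and served as background. The single Wt1 probe set read 8396.8, 7129.4, 8197.2 and 7423.0 in the control samples (arrays 1 to 4, in that order throughout), and 1679.3, 1531.0, 1316.8 and 1913.9 after knockdown. Wt1 siRNA arrays thus held 20.5% of the control level of the targeted transcript.

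All 14 probe sets of the 8 genes were above background on every array, with signals between 292.9 and 39791.7, so each of these mesothelial transcripts was detected in the control cells. With Wt1 siRNA, 7 of the 8 genes were lower on every probe set and Efemp1 overlapped between groups. Lrrn4 was at 12.7% of its control level, Upk3b at 34.4% and 37.4% on its 2 probe sets, and Gpm6a at 44.9% and 45.6%. Bnc1, Tbx18 and Msln lay between 53.3% and 59.5%, and Upk1b between 56.9% and 81.4% depending on the probe set. The median log2 difference over the 14 probe sets was -0.88, beside -0.01 over all 22518 probe sets tested.

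In limma's test with an adjusted p under 0.05, 13 of the 14 probe sets were called lower and 0 higher, and 12.3% of all tested probe sets were called lower. In the same 13 every Wt1 siRNA array lay below every control array, which held for 14.3% of all tested probe sets. Because the genes were chosen with this contrast known, nothing is read from these counts. All 14 probe sets passed the filter that kept the brighter part of the array, and a gene that is dim after knockdown could pass it through its control level. The called probe set with the smallest difference was one of Upk1b, -0.30 ± 0.08 (SE), and the one not called was Efemp1, -0.10 ± 0.09, well short of the threshold.

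**Figure D1:**
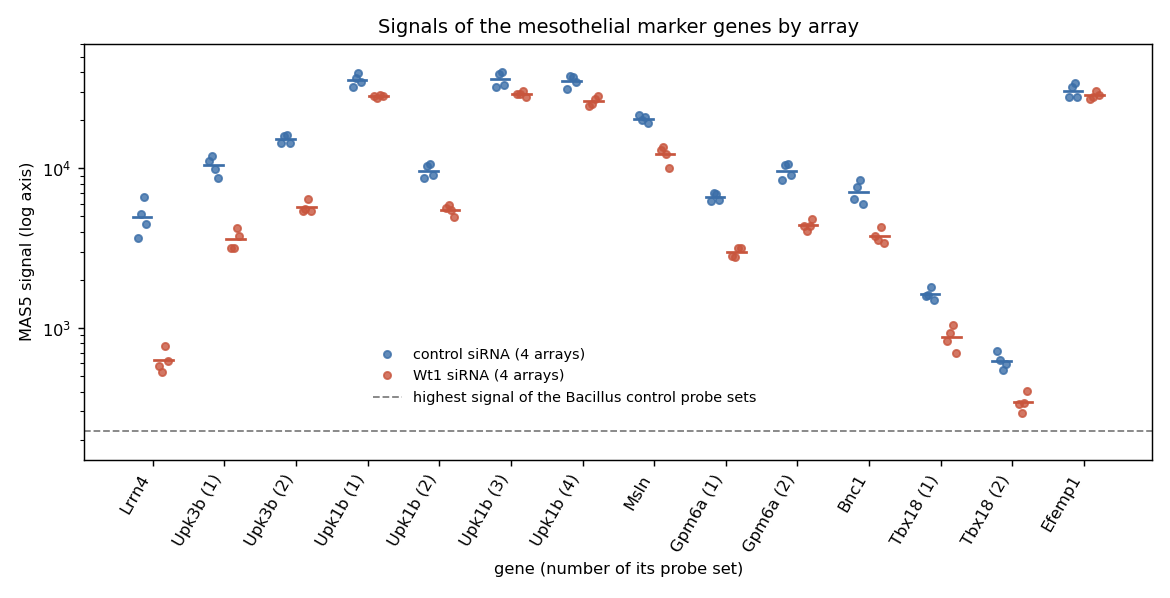
MAS5 signal on a log axis for each of the 14 probe sets (numbered within a gene in array order), with 1 point per array, 4 control siRNA arrays in blue and 4 Wt1 siRNA arrays in red, a short line at each group mean and a dashed line at the highest Bacillus control signal of 227.2. The groups are separate for 13 probe sets and overlap for Efemp1.

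Lrrn4 encodes a leucine-rich repeat membrane protein that marks mesothelial cells. Its signals were 3684.2, 5199.0, 6559.5 and 4483.1 in control samples and 578.1, 532.3, 772.0 and 622.9 after Wt1 siRNA. The lowest control array was thus 2.25 log2 units above the highest Wt1 siRNA array, although its control arrays had the widest spread on the log2 scale among the 14 probe sets (4981 ± 1220 against 626 ± 104, SD, n = 4 each). The log2 difference was -2.97 ± 0.17 (SE), a level 7.86-fold lower. It was the lowest difference among the 9096 tested genes, and with any 1 array left out it stayed between -3.11 and -2.83.

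The uroplakins are membrane proteins known from the urothelial plaque, and Upk3b and Upk1b are also made by mesothelium. Upk3b is a single-pass protein of that group. On its first probe set it read 11155.1, 11889.2, 9950.7 and 8656.9 in control samples and 3159.5, 3161.6, 4242.6 and 3774.0 after Wt1 siRNA. The second probe set, which can also match related transcripts, read 14396.9, 15963.2, 16207.6 and 14415.1 against 5431.5, 5536.5, 6458.7 and 5433.0. The groups were apart on both, by more than a factor of 2 between the nearest arrays. The log2 differences, -1.54 ± 0.12 and -1.42 ± 0.08 (SE), lay within 0.122 of each other.

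Upk1b, a tetraspanin, had 4 probe sets, and 3 of them had mean signals above 20000. On the first of these it read 32271.2, 36991.7, 39427.9 and 34773.6 in control samples and 28163.9, 27638.9, 28960.0 and 28325.0 after Wt1 siRNA. The dimmer probe set read 8701.9, 10277.1, 10591.0 and 9029.4 against 5609.9, 5891.1, 5468.5 and 4955.0. No array of one group reached the other group on any of the 4, but the distance differed. The dimmer probe set had a log2 difference of -0.81 ± 0.09 (SE), and the bright ones had -0.34 ± 0.08, -0.30 ± 0.08 and -0.42 ± 0.08. Both the dimmer probe set and the bright one at -0.30 can also match related transcripts. The calls on the 3 bright probe sets were lost when each array was centred on its median, where they stood at -0.23, -0.19 and -0.31. The -0.30 call was also lost without an intensity trend in the variance, without control siRNA array 2, without Wt1 siRNA array 1 and without Wt1 siRNA array 2.

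Probe sets of high brightness moved less in general. A log2 difference of at least 0.5 in either direction was seen in 17.5% of the 9288 tested probe sets with a mean signal of 1000 to 5000, in 11.4% of 3762 at 5000 to 20000, and in 3.79% of 845 at 20000 or more. The median log2 difference in that brightest band was 0.175, above 0, while the 3 bright Upk1b probe sets and Efemp1 were below it. Quantile normalization, which removes such a shift with brightness, placed the bright Upk1b probe sets at -0.47, -0.42 and -0.55 and Efemp1 at -0.22. Whether brightness sets the size of the difference on the Upk1b and Efemp1 probe sets was not tested.

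**Figure D2:**
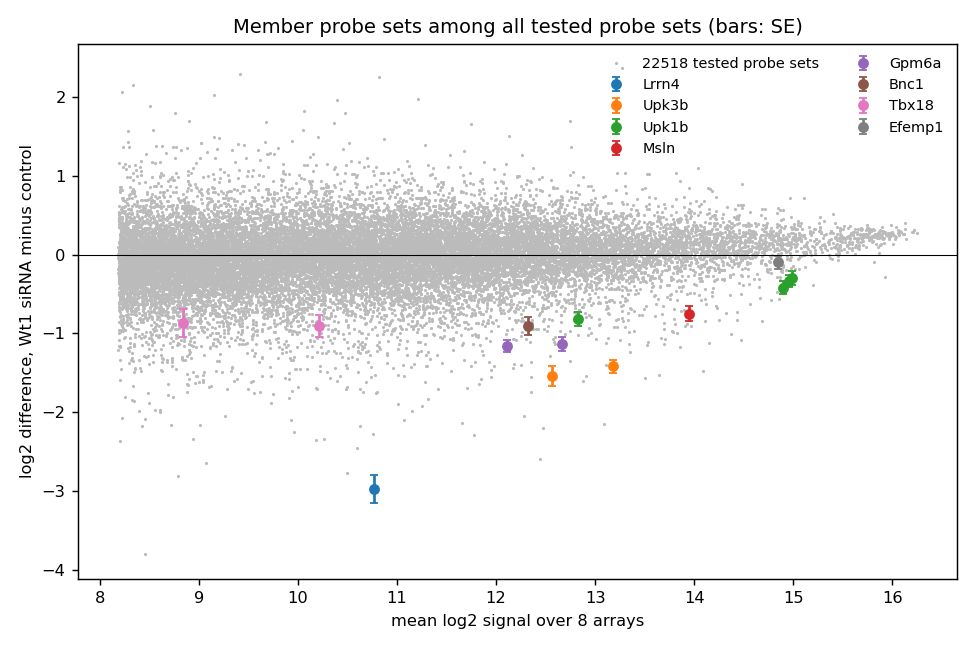
Log2 difference (Wt1 siRNA minus control) against the mean log2 signal over 8 arrays for the 22518 tested probe sets in grey, with the 14 probe sets of the mesothelial markers in colour and bars of 1 SE. Lrrn4 lies at -2.97, and the 3 bright Upk1b probe sets and Efemp1 lie at the bright end, where few probe sets differ by 0.5 or more.

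Msln encodes the precursor of mesothelin, a glycolipid-anchored surface protein that binds the mucin Muc16. Its signals were 21569.0, 20129.6, 20877.1 and 19262.9 in control samples and 13035.5, 13509.9, 12259.8 and 10101.2 after Wt1 siRNA. The control arrays were close together and Wt1 siRNA array 4 was the lowest of all. The level was 59.5% of control, a log2 difference of -0.75 ± 0.09 (SE).

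Gpm6a encodes a proteolipid-family membrane glycoprotein best known from neurons. The first probe set read 6239.2, 7035.1, 6884.4 and 6326.9 in control samples and 2813.2, 2780.0, 3147.5 and 3144.3 after Wt1 siRNA. The second, which can match related transcripts, read 8437.9, 10488.5, 10595.8 and 9079.3 against 4368.6, 4055.8, 4330.0 and 4784.0. The groups were far apart on both, and the log2 differences of -1.16 ± 0.08 and -1.13 ± 0.09 (SE) lay 0.0227 from each other, the closest agreement among the 4 genes with several probe sets.

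Bnc1 and Tbx18 are the transcription factor genes of the set. Bnc1 encodes basonuclin 1, a zinc finger protein of keratinocytes, germ cells and mesothelium. It read 6381.3, 7587.1, 8382.7 and 5986.7 in control samples and 3777.0, 3543.1, 4283.5 and 3424.0 after Wt1 siRNA. The highest Wt1 siRNA array stayed under the lowest control array, and the level was 53.3% of control (log2 -0.91 ± 0.11, SE).

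Tbx18, a T-box factor of the epicardium and of the mesenchyme around the ureter, had 2 probe sets. The brighter probe set read 1589.4, 1597.7, 1797.0 and 1505.8 in control samples and 827.3, 925.9, 1039.6 and 701.0 after Wt1 siRNA. The dimmer one read 718.0, 625.7, 544.9 and 595.8 against 333.7, 292.9, 339.0 and 400.7. The groups were apart on both, with log2 differences of -0.91 ± 0.14 and -0.86 ± 0.18 (SE). The arrays did not rank alike on the 2 probe sets, since control array 3 was the highest on the brighter one and the lowest on the dimmer one.

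Efemp1 encodes fibulin-3, a secreted glycoprotein of the extracellular matrix, and is the one matrix gene of the set. It read 27769.4, 32454.8, 34423.3 and 27993.0 in control samples and 27211.0, 27922.0, 30406.4 and 28753.6 after Wt1 siRNA. The Wt1 siRNA arrays fell within or just under the control range, and the log2 difference of -0.10 ± 0.09 (SE) was 0.01 with arrays centred on their medians. It was called lower under quantile normalization only, among the alternatives run.

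RefSeq promoter entries (GRCm38.p6, from 250 bases before to 50 bases after a transcript start) matched 6 of the 8 genes, with 2 entries for Gpm6a and none for Upk1b and Msln. Shown are the 250 bases before the start for the 3 genes with the lowest levels relative to control and, for comparison, for Efemp1. The Gpm6a entry is the upstream one of its 2. The start used for the Lrrn4 entry lies inside the span that RefSeq gives the gene, so this window is not upstream of the whole gene. Capitals mark matches to 3 motifs searched on both strands. These were GTGGGAG and GTGGGGG, cores of the kind bound by WT1, and GGAATG, the kind bound by TEAD factors. All are written 5′ to 3′ on the strand of the gene.
Lrrn4, chr2:132880863-132881112, minus strand: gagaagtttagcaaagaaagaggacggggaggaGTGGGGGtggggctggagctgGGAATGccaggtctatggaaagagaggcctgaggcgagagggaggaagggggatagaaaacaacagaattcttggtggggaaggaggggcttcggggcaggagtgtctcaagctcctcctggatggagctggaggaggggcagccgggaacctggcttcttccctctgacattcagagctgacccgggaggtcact
Upk3b, chr5:136038246-136038495, plus strand: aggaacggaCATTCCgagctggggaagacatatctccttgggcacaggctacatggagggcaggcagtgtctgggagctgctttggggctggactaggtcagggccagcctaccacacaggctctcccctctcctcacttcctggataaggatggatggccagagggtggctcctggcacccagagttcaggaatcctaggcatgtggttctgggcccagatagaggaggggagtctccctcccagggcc
Gpm6a, chr8:54779184-54779433, plus strand: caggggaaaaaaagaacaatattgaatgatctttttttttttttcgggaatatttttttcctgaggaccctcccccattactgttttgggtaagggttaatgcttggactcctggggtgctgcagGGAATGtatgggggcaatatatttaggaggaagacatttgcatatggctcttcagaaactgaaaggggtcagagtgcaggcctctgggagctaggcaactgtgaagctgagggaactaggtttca
Efemp1, chr11:28852955-28853204, plus strand: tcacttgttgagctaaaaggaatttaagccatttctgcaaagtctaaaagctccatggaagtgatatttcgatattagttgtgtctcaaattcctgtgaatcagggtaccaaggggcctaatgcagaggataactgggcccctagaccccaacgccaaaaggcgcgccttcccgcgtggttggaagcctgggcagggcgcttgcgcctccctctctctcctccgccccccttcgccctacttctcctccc

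In these windows of 300 bases GTGGGGG was found in the Lrrn4 entry, 217 bases before that internal start, and in no other member entry, against 11.4% of all 32851 promoters in the table. GTGGGAG was found in 0 of the 7 member entries and in 9.73% of all promoters. GGAATG was found in the entries of Lrrn4 and Upk3b and in the upstream Gpm6a entry, against 14.7% of all promoters, and on the opposite strand in Upk3b. No match overlapped another. In all, 3 of the 7 member entries held a match. The entries of Bnc1 and Tbx18, which were also lower, held none, nor did those of Efemp1 and the second of Gpm6a. The Bnc1 entry was the richest in G and C, at 83.3% with 50 CpG dinucleotides, and the second Gpm6a entry the poorest at 36.0%, beside a median of 52.7% over all promoters. A match shows only that these letters occur in the window.

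Array by array, each of the 7 lower genes lay below its control mean on all 4 Wt1 siRNA arrays. On the brightest probe set of each gene, control array 3 was the highest control array for 7 of the 8 genes, and it was so for 29.9% of all tested probe sets. Control array 1 was the lowest for 5 and control array 4 for 3, against 23.6% and 17.1% of all tested probe sets. Control array 3 was the lowest for 0 of the 8, against 35.4% of all tested probe sets. Among the treated arrays, Wt1 siRNA array 3 was the highest for 6 of the 8, against 22.6% of all tested probe sets, while it had the lowest Wt1 signal of the group, 1316.8. The percentages count probe sets and the member counts genes. Over all 14 member probe sets, control array 3 was the highest for 9 and the lowest for 1. Control array 1 was the lowest for 9 and control array 4 for 4, and Wt1 siRNA array 3 was the highest for 9. These are orders within 4 arrays and the replicate numbers carry no sequence.

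**Figure D3:**
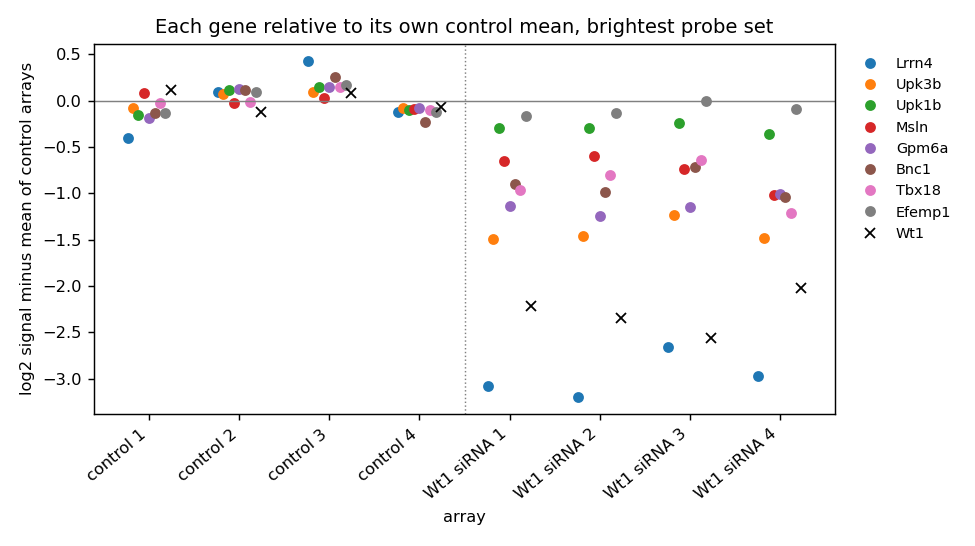
Log2 signal of each of the 8 genes (brightest probe set, coloured circles) and of Wt1 (black crosses) minus the gene's own mean over the 4 control arrays, for each of the 8 arrays. The control arrays scatter around 0, the markers other than Efemp1 lie below 0 on all Wt1 siRNA arrays, and Lrrn4 lies below Wt1 on each of them.

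The tested genes with the most similar course over the 8 arrays were listed for each member, by the root mean square distance between log2 signals taken relative to the gene's own control mean. For Upk3b they were Lrrc8c and Dnaja3 (0.0716 and 0.0726), for Gpm6a Cox5a and Aplp1 (0.0613 and 0.0630), and for Msln Cebpzos and Rabl3 (0.0581 and 0.0706). For Bnc1 they were Zfp664 and Capza2 (0.0861 and 0.0893), for Tbx18 Pwwp3b and Chordc1 (0.0812 and 0.0814), for Upk1b Usp5 and Ermp1 (0.0454 and 0.0524) and for Efemp1 Prkci and Stard7 (0.0449 and 0.0451). Lrrn4 had no close neighbour, since its nearest, Apmap and Stk26, were at 0.537 and 0.556. Members were left out of this search, and the median distance of all tested genes was 2.14 from Lrrn4 and 1.03 from Upk3b, but 0.311 from Upk1b and 0.253 from Efemp1. The distance largely follows the size of the difference, so a gene that differs little has many close neighbours and Lrrn4 few.

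Other genes of mesothelium and epicardium moved in part. Of 28 such genes 27 were on the array and 14 were bright enough to test, and of these 6 were lower, 1 was higher and 7 did not pass, beside 18.5% of all tested genes called lower and 18.8% called higher. Genes called higher were 50.3% of all calls, and 66.9% with arrays centred on their medians. The lower share was thus 42.9% of the tested genes, and no test of the list was made. The list's median log2 difference was -0.10, against 0.02 over all tested genes. With arrays centred on their medians it was 0.00355, on a scale on which all tested genes shifted up by 0.108. With the mean over a gene's probe sets it was -0.35, with 9 genes lower and 1 higher. This list and that of the family relatives below were also chosen with earlier results of these data known. Their calls and p-values describe the arrays and are not independent evidence.

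Sema3d, encoding a secreted semaphorin of the epicardium, fell from 1838 ± 124 to 578 ± 97.6 (SD, n = 4 each; log2 -1.68 ± 0.13, limma adjusted p = 1.13e-06). Podxl, which encodes the sialomucin podocalyxin, fell to 40.3% of control (log2 -1.31 ± 0.25, limma adjusted p = 0.00106), but its dimmer probe set was at -0.11 and the mean over both at -0.71. Nkain4, encoding a protein that interacts with the sodium pump, fell to 53.15% of control (limma adjusted p = 0.000419) and Aldh1a2, the retinoic acid synthesis gene of embryonic mesothelium, to 56.3% (limma adjusted p = 0.00147). Igfbp6, for a binding protein of insulin-like growth factors, fell to 59.9% (limma adjusted p = 0.00041). Krt18 fell slightly, to 87.4% (limma adjusted p = 0.0243), and its call was lost with median centring (-0.09) and without Wt1 siRNA array 2 or 3.

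Krt8, whose product pairs with keratin 18, was the gene that rose, to 146.0% of control (log2 0.55 ± 0.15, limma adjusted p = 0.00949). Its other 2 probe sets were at 0.35 and 0.42. Krt19, Pdpn, Gata4, Gata6 and Ptgis, which are typical of mesothelium or its precursors, had log2 differences between -0.12 and 0.06 and did not pass. Ezr, for the cortical linker ezrin, was at -0.09 on its bright probe set and at -0.66 ± 0.17 (SE) on the dimmer. Muc16, whose mucin is the binding partner of mesothelin, was under the brightness filter for genes and read 551 ± 39.0 in control and 286 ± 107 in Wt1 siRNA samples (SD, n = 4 each). Rspo1, for a secreted Wnt agonist, was also under it, at 562 ± 140 and 278 ± 70.0. Muc16 on Wt1 siRNA array 1 (137.9) and Rspo1 on Wt1 siRNA array 2 (191.2) were under the background of 227.2. Muc1, Pkhd1l1 and Itln1 were below background on all arrays.

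The relatives of the 8 genes were mostly dim in these cells. Of 24 paralogs and partner uroplakins 21 were on the array, and 8 of these stayed below background on every array, among them Lrrn2, Lrrn3, Tbx1, Tbx2, Tbx4 and Tbx5. The uroplakin genes that share the urothelial plaque with Upk1b and Upk3b were low. Upk1a read 442 ± 102 in control samples, Upk2 568 ± 112 and Upk3a 203 ± 34.9, all under the brightness filter for genes. On their single probe sets, Upk1a and Upk2 had log2 differences of 0.37 ± 0.20 and 0.29 ± 0.23 (SE), and the groups overlapped. Lrrn1, the third relative of Lrrn4, was above background on 1 of 8 arrays.

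Of the 6 relatives tested, 2 were lower, 1 was higher and 3 did not pass, beside 18.5% and 18.8% of all tested genes. Bnc2, the paralog of Bnc1, fell to 40.9% of control (1732 ± 345 to 729 ± 245, SD, n = 4 each; log2 -1.29 ± 0.22, limma adjusted p = 0.000542). Fbln5, an elastic fibre relative of Efemp1, fell to 34.4% (log2 -1.54 ± 0.08, limma adjusted p = 5.91e-08). Fbln1, another fibulin gene, rose to 164.5% (limma adjusted p = 0.00355), although the groups overlapped. Of its 3 probe sets, the middle one by brightness was at 0.58 and the dimmest at -0.69, both without overlap. The Fbln1 call was lost with the mean over its probe sets (0.21). Fbln2 had a log2 difference of 0.23 ± 0.09 and did not pass. The T-box relatives of Tbx18 that were tested did not pass, with Tbx20 at 0.00262 ± 0.08 and Tbx15 at -0.30 ± 0.19. The median of the 6 was -0.15. The median of the tested relatives changed sign under 4 of the alternatives, but these also changed which relatives or probe sets entered it. A change of filter leaves the difference of each gene as it is.

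**Figure D4:**
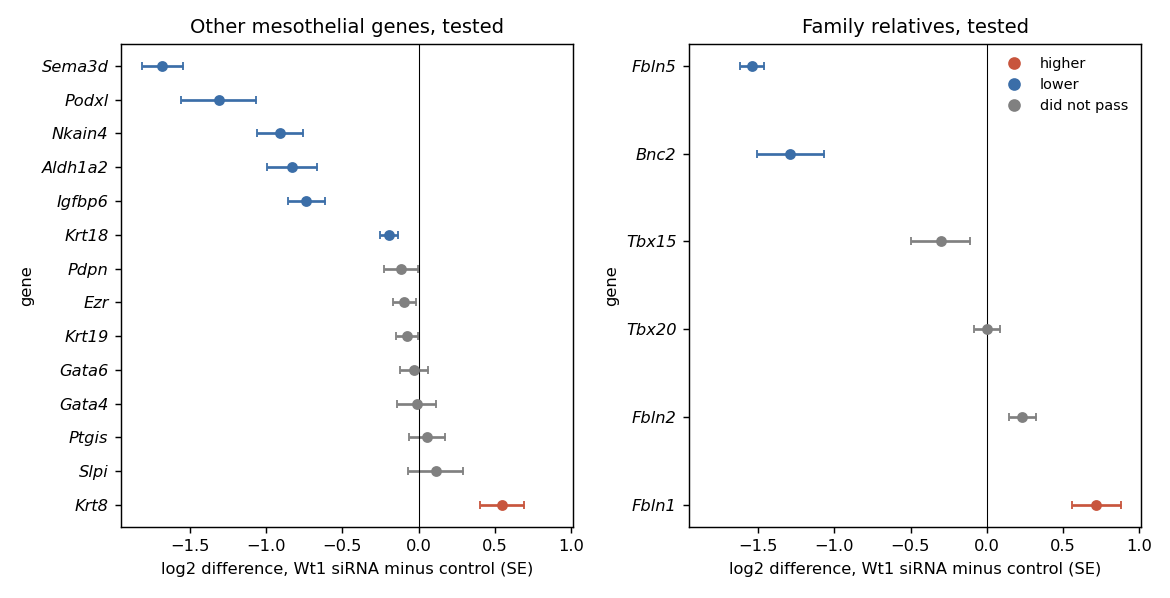
Log2 difference (Wt1 siRNA minus control, with bars of 1 SE) of the 14 tested genes among other mesothelial genes and of the 6 tested family relatives, coloured red where limma called them higher, blue where lower and grey where they did not pass. Sema3d, Fbln5, Podxl and Bnc2 lie lowest, and Krt8 and Fbln1 are the genes that rose.

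Markers of other kidney and blood cell types were checked in the same arrays. Pecam1, Tek and Tie1 of endothelium, Ptprc of leukocytes, Cdh16 and Umod of tubules and Cited1, Sall1 and Gdnf of nephron progenitors stayed below background on every array. Other markers of the same cell types were above background on all 8 arrays. They were Kdr of endothelium, Csf1r, Cd68 and Lyz2 of leukocytes, and Epcam, Cdh1, Lrp2 and Ret of epithelium. Six2, Osr1 and Eya1 of nephron progenitors were also above it on all 8. Of the tested markers, Synpo and Podxl of podocytes, Epcam and Lrp2 of epithelium, Col1a1 and Dcn of stroma, Kdr and Csf1r were lower, and Osr1 and Cd68 were higher. These calls rest on each gene's brightest probe set, and the dimmer Podxl probe set was at -0.11. The Epcam probe set can also match related transcripts and read from 1226.6 to 4068.6 in control samples. The epithelial markers did not all go one way. Cdh1, for E-cadherin, was under the brightness filter for genes but above background on all 8 arrays, and read 415 ± 85.5 in control and 794 ± 90.5 in Wt1 siRNA samples (SD, n = 4 each) without overlap. The summed signal of the 6 stroma and fibroblast markers was 29154 to 33495 on control and 15811 to 22319 on Wt1 siRNA arrays, and that of the 8 mesothelial markers 116000.0 to 138630.0 and 81806 to 90036. Col1a1 (means 24014 and 15322) made up most of the stroma sum, and Pdgfra, Pdgfrb, Foxd1 and Meis1 overlapped between groups. The nephron progenitor sum was higher on Wt1 siRNA arrays (1371.6 to 2049.4 and 2286 to 2872). Leukocyte and tubule sums overlapped, and endothelial and podocyte sums were lower. The part of other cell types in the differences above was not tested.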

How the data were processed

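RNA from 8 samples of the LB-22 line, 4 per group by their labels, was hybridized to Affymetrix Mouse 430_2 arrays. The deposited values are linear signal intensity per probe set, computed by the authors with the MAS5 algorithm according to the submitters' processing notes; its version and settings are not given in the sources used here. Of 45101 probe sets, 64 controls were left out, 34945 had 1 gene symbol, 932 several and 9160 none in the platform annotation, and only those with 1 symbol were named.

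Signals were converted to log2 and fitted with limma 3.58.1 in R 4.3.3 (eBayes with an intensity trend, Benjamini-Hochberg adjusted p under 0.05). The brighter part of the array by mean signal was tested, 22518 probe sets (lowest mean 291.1), and 9096 of 18193 genes (lowest mean 663.9), with a gene's brightest probe set standing for it. Member values come from the fit over probe sets and list values from the fit over genes. The SEs of Upk1a, Upk2 and the dimmer Ezr probe set come from the fit over probe sets. The fit was tested on simulated data.

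The members and all lists were chosen with earlier results of these data known. Named were all members, Wt1, up to 8 called genes per list by size of difference, and for each member the 2 nearest genes; the list genes named as not passing or below the filter, and the cell type markers, were picked after their values were seen. Same-numbered arrays did not deviate together (correlations -0.0368, -0.0617, 0.0433 and 0.0824), so the numbers were not treated as pairs. Over tested probe sets, arrays correlated at 0.966 to 0.985 within groups and 0.937 to 0.967 between them. Alternatives changed the normalization, filter, pseudocount, variance trend, rule for several probe sets and the arrays used. Detection calls were not used here.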

Additional observations from a re-analysis of the deposited data

Results flagged for a closer look

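Among 50 groups of 4 arrays examined, 2 had an array far from the other 3, and chance alone gives about 1 in 20. The second Upk3b probe set read 6458.7 on Wt1 siRNA array 3, against 5431.5 to 5536.5 on the other 3 arrays of the group, a gap of 0.889 of the group's range. The brightest Krt8 probe set read 1152.3 on control siRNA array 2, against 1788.1 to 1890.1 on the other 3, a gap of 0.888 of the range.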

How the results depend on the processing

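Of 232 recomputed differences of member probe sets, 224 moved by less than the spread between arrays or not at all, 7 moved by more and 1 changed sign. Changes of filter or variance trend, the replicate block and the removal of shared-sequence probe sets cannot move a probe set's difference. The 224 include those settings, where the outcome was fixed. In the main setting 13 probe sets were called lower, with 14 under quantile normalization, 10 under median centring and 12 to 13 with 1 array left out. Of 173 for list genes, 4 lost their call. With median centring 1369 probe sets and 785 genes were called lower, Efemp1 stood at 0.0116 and the median of the other mesothelial genes at 0.00355. With only the brightest 0.25 of genes tested (fewer genes in every list), 1095 genes were called higher and 775 lower, 0 and 3 of the other mesothelial genes and 0 and 1 of the family relatives, and the relatives' median was 0.00262, as it was without shared-sequence probe sets. With the mean over probe sets 0 relatives were higher and 1 lower (median 0.21), and the other mesothelial genes had a median of -0.35 with 9 lower. Without a filter the median of the relatives was 0.11 and that of the other mesothelial genes -0.09. Changing the filter or the probe-set rule also changes which genes of a list are tested, so these counts and medians cover differing sets. Bnc2 was not among the genes tested with the mean over probe sets, so its call there is missing and not lost. The cause of these changes was not tested beyond that. Leaving out 1 array, 1 to 2 relatives were called higher, 2 of them without control siRNA array 1 and without Wt1 siRNA array 3. With a replicate block 1702 genes were called higher and 1712 lower, and member probe sets stayed at 13 lower; the array numbers do not pair the samples. Depth is limited here by signal over background. Probe sets with a mean under 291.1 have values without a test, and genes with a mean under 663.9 were left out of the fit over genes. Some of these genes, such as Upk1a and Upk2, have a probe set in the fit over probe sets.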
